A study of Mus musculus with 46 samples.

Results

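Multipotent germline stem (mGS) cells that arose without any vector in cultures of germline stem (GS) cells were compared with embryonic stem (ES) cells. The comparison was defined by the sample titles alone. It covers 4 arrays of 2 mGS lines and 6 arrays of 3 ES lines, 10 of the 46 arrays and 5 of the 23 lines in the series, with 2 cultures of each line. Both mGS lines, mGS 1 and mGS 2, are labelled DBA/2; GFP Tg, that is, they come from DBA/2 mice carrying a green fluorescent protein transgene. The ES lines differ from them, and from each other, in strain: ES R1 is labelled a hybrid of 129X1/SvJ with 129S1/SV-+p+Tyr-cKitlSl-J/+, ES B6-6 is C57BL/6J, and ES BRC1 is (B6xDBA2)x129. Origin and strain therefore cannot be told apart between mGS and ES cells. Used for comparison were 3 induced pluripotent stem (iPS) lines, in which retroviral vectors carried Oct4, Sox2, Klf4 and c-myc, and 3 GS lines, all also DBA/2; GFP Tg. The remaining 12 lines, in which GS cells of the same strain had been converted with lentiviral vectors that included a p53 knockdown, entered the same statistical model. All pluripotent lines were grown on mouse embryonic fibroblast feeders with serum and LIF, and feeders were depleted on gelatin before RNA was taken. The labels give no age of the donors and no passage of the cultures, and say that the arrays of a line are separate cultures.

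Spermatogonial stem cells are the stem cells of the testis, committed in the animal to making sperm. In culture they grow as GS cells under GDNF and FGF2, and colonies resembling ES cells occasionally appear among them. These mGS cells express the core pluripotency network of Oct4 (Pou5f1), Sox2 and Nanog and grow under ES cell conditions, while ES cells come from the inner cell mass of the blastocyst. ES cells in serum and LIF move between a naive state, marked by factors such as Klf4 and Tbx3, and states with genes of the primed epiblast, and male germline genes are mostly silent in them.

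The values are linear array intensities, averaged on the log2 scale over the 2 cultures of a line. Array medians were 219 to 232 in mGS arrays and 219 to 233 in ES arrays. The intensity below which a gene is called not above background, 161, is the 95th percentile of 1027 olfactory receptor genes. Differences are log2 mGS minus ES ± the standard error of limma, over 2 mGS and 3 ES lines, and a gene is said to have risen or fallen in mGS cells where its Benjamini-Hochberg adjusted p over 19938 genes was below 0.05. Where the dimmer group was under background, the fold is a lower bound, the mean of the brighter group divided by the background. Levels of different genes are not compared.

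The labels were checked against markers of pluripotent, germline and feeder cells. All 8 of 8 pluripotency markers were above background in both groups, and their summed intensity was 35590 in mGS 1 and 29937 in mGS 2, against 31504 to 38042 in ES lines. The summed intensity of 7 GS markers was 1410 and 1465 in mGS lines, against 2119 to 2322 in ES lines, and 47822 to 55538 in GS lines. Of those markers, Zbtb16 and Mageb4 were below background in mGS lines. The summed intensity of 8 fibroblast markers was taken as a measure of the feeder cells left in the samples. It was 8288 in mGS 1 and 16481 in mGS 2, against 9140 in ES R1, 16918 in ES B6-6 and 20319 in ES BRC1, with all 8 above background in both groups. Fn1 alone gave 5386 of the sum in mGS 1 and 6552 in mGS 2, and 5652, 6486 and 6021 in ES R1, ES B6-6 and ES BRC1. It varied little, so the sum understates the differences between lines in the other markers as a group. Fewer feeder cells and less RNA per feeder cell cannot be told apart in these bulk samples. Which cells made the RNA of these markers was not tested.

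The promoter windows of 4 genes are printed here because the comparison turns on them. Kcnma1 and Npy had the highest differences, and Slc27a2 and Zfp277 fell in mGS cells whichever line was left out. Each window runs from 250 bases before to 50 bases after the transcription start, 5′ to 3′ on the strand of the gene, from RefSeq on GRCm38.p6, with every CG dinucleotide, the site of DNA methylation, in capitals. Kcnma1 lies at chr14:24004156-24004455 on the minus strand, Npy at chr6:49822460-49822759 on the plus strand, Slc27a2 at chr2:126552774-126553073 on the plus strand and Zfp277 at chr12:40445741-40446040 on the minus strand.
Kcnma1: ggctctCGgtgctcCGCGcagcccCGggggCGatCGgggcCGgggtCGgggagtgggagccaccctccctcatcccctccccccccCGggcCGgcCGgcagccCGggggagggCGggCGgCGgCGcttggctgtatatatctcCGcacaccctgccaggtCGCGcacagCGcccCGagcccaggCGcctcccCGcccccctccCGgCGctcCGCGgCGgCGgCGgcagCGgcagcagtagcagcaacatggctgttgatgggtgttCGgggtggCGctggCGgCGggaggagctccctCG
Npy: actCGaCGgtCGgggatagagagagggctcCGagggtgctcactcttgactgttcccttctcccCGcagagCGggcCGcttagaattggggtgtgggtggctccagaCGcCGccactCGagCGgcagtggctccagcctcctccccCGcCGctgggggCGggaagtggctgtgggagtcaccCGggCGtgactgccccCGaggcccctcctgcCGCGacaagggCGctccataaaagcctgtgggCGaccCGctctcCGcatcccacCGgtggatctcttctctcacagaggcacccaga
Slc27a2: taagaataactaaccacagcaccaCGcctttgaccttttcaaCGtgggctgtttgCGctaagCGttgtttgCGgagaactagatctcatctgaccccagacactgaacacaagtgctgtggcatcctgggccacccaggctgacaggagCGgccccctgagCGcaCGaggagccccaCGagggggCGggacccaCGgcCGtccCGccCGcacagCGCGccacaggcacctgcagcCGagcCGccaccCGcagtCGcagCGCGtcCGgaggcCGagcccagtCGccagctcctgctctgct
Zfp277: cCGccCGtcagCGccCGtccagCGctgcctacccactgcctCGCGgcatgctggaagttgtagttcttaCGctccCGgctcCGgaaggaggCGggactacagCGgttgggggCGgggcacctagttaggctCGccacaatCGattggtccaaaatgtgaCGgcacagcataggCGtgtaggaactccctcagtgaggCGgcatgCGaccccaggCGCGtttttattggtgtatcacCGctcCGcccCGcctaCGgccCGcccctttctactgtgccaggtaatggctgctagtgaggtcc
The Kcnma1 window held 36 CG, more than 91.9% of the 12977 windows of tested genes. The counts were 24 for Npy (percentile 71.3), 25 for Slc27a2 (73.6) and 26 for Zfp277 (76.1). All 4 were above the median of 15 CG, and 58.9% of all windows held more than 10. A window was found for 12 of 17 risen genes (70.6%) and 13 of 24 fallen genes (54.2%), against 65.1% of all tested genes. Both sets were under the 80% at which such a set can be compared, so the sets were not compared. No methylation was measured.

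Few genes separated mGS from ES lines. Of 19938 genes 41 were called (0.206%), of which 17 rose in mGS cells (0.0853%) and 24 fell (0.12%), and 22 of the 41 differed by more than 2-fold. An unadjusted p below 0.05 was found for 1265 genes (6.34%). In all 41 called genes the mGS and ES lines did not overlap, as in 3468 of all genes (17.4%). In 5 of the 41 both means were below background, and these are not described further. The median difference of all genes was −0.03. The count depended on single lines. It was 202 without ES R1, 28 without ES B6-6, 31 without ES BRC1, 21 without mGS 1 and 14 without mGS 2. Of the 30 called genes named here, 8 kept their call with each of the 5 lines left out in turn (Kcnma1, Ulk4, Sfi1, Lyrm7, Rmc1, Foxj2, Slc27a2 and Zfp277), and the other 22 lost it without at least 1 line.

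**Figure D1:**
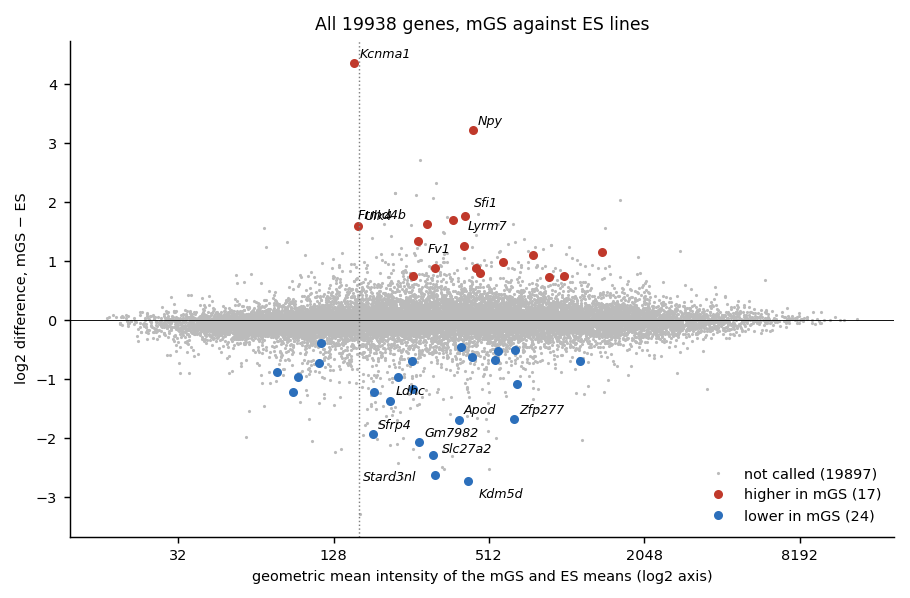
Each point is 1 of 19938 genes, with the geometric mean intensity of the mGS and ES means on a log2 axis against the log2 difference mGS minus ES. Red points are the 17 genes that rose in mGS cells and blue points the 24 that fell. Kcnma1 at 4.36 and Npy at 3.23 stand above the other called genes, and the dotted line is the background of 161.

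Kcnma1, which encodes the pore-forming subunit of the large-conductance potassium channel opened by calcium and voltage, had the highest difference of all called genes. Its intensity was 703 in mGS 1 and 694 in mGS 2, against 30.0 in ES R1, 39.6 in ES B6-6 and 33.4 in ES BRC1. The 4 mGS arrays lay between 666 and 742, and the 6 ES arrays between 29.6 and 45.0, all below background. The difference was 4.36 ± 0.34 (adjusted p = 2.52e-06), at least 4.34-fold against background. The gene is represented by 2 probe sets, and they disagree. The other probe set read 169 and 175 in mGS lines, against 151, 172 and 163 in ES lines, a difference of 0.09 ± 0.20 (adjusted p = 0.984). With both probe sets averaged the difference was 2.22 (adjusted p = 6.08e-05). Which transcripts each probe set detects was not resolved here.

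By the probe set that is brighter over all arrays, Kcnma1 was also high in every other line of the series apart from ES cells. The iPS lines read 543, 748 and 744 and the GS lines 453, 457 and 355. In order of their means, the vector-made groups and the spontaneous lines ran Sox2 mGS (806), spontaneous mGS (699), Oct4 mGS (688), iPS (671), Dmrt mGS (513), GS (419) and Dnmt mGS (296), and then ES (34.1). Most neighbouring groups in that order overlapped. The exceptions were Sox2 mGS, whose lowest line at 715 was above the higher spontaneous line, GS, whose lowest line at 355 was above the highest Dnmt mGS line at 342, and ES, whose highest line was 39.6 against 236 for the lowest of all other lines. The other probe set gave another order: GS (321), Sox2 mGS (265), Oct4 mGS (239), Dmrt mGS (199), spontaneous mGS (172), Dnmt mGS (167), iPS (163) and ES (162). By that probe set the iPS and Dnmt mGS means were close to the ES mean. Among the genes listed as potassium channels 27 were measured. Of these 1 rose, Kcnma1 itself, and 0 fell, with 2 at an unadjusted p below 0.05 and a median difference of 0.03 beside −0.03 for all genes. The auxiliary subunits Kcnmb1 (111 and 134 in mGS lines, 111 to 117 in ES lines) and Kcnmb2 (142 and 140 in mGS lines, 130 to 158 in ES lines) were below background in all 5 lines, while Kcnmb2 was above it in GS lines, at 191, 176 and 184.

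Npy, a secreted peptide best known as a neurotransmitter, had an intensity of 895 in mGS 1 and 2042 in mGS 2, against 153 in ES R1, 141 in ES B6-6 and 140 in ES BRC1. Every ES line was below background and the lines did not overlap. The difference was 3.23 ± 0.48 (adjusted p = 0.00435), at least 8.39-fold against background. The mGS lines differed 2.28-fold from each other, and without mGS 2 the difference was 2.63 and no longer passed (adjusted p = 0.138). The iPS lines read 410, 1365 and 599, while the GS lines, from which mGS cells arise, read 62.6, 53.5 and 61.1, below background. In order of their means, Npy ran spontaneous mGS (1352), iPS (695), Sox2 mGS (687), Oct4 mGS (502), Dmrt mGS (274), Dnmt mGS (185), ES (145) and GS (58.9). The ranges of neighbours in that order overlapped except for GS. Its receptors Npy1r (63.4 and 65.0 in mGS lines), Npy2r (55.5 and 51.1) and Npy5r (88.3 and 96.3) were below background. Of 25 measured neuropeptides and receptors 1 rose (Npy), 0 fell and 4 had an unadjusted p below 0.05, with a median of −0.04.

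Over the 23 lines the genes with levels most like those of Kcnma1 were Fv1 (Pearson r = 0.88), Rmc1 (0.84) and Gpr137b-ps (0.83), and those most like Npy were Tubb6 (0.87), Hebp2 (0.87) and Stx3 (0.86). These are descriptions over lines that fall into 8 groups and share their group means.

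The other genes that rose in mGS cells have varied known roles. Sfi1, a centrin-binding protein of centrosomes and spindles, read 781 and 744 in mGS lines, against 297, 178 and 211 in ES lines, a difference of 1.77 ± 0.21 (adjusted p = 0.000478). Lyrm7, an assembly factor of mitochondrial complex III, read 784 and 574 in mGS lines, against 163, 212 and 258 in ES lines (1.69 ± 0.21). Ulk4, a protein related to the autophagy kinase Ulk1, read 291 and 267 in mGS lines, against 93.5, 104 and 79.0 in ES lines, all below background, which is at least 1.73-fold (1.60 ± 0.12). The spread within each group of these 3 genes was small beside the gap between the groups, and each gene kept its call without any 1 line. Frmd4b, a scaffold protein with a FERM domain, read 482 and 551 in mGS lines, against 152, 196 and 156 in ES lines (1.63 ± 0.30), and lost its call without any of the lines except ES R1. Fv1, an antiviral factor derived from an endogenous retrovirus and known for alleles that differ between mouse strains, read 449 and 422 in mGS lines, against 115, 255 and 169 in ES lines (1.35 ± 0.23, adjusted p = 0.0113). Of 19 measured genes listed for known strain variants, Fv1 was the 1 that rose and 0 fell. An unadjusted p below 0.05 was found for 5 of the 19, against 6.34% of all genes, and the median difference was −0.07.

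Rmc1, a subunit of the complex that activates Rab7 on endosomes, read 2139 and 2045 in mGS lines, against 806, 1164 and 891 in ES lines (1.15 ± 0.16). Foxj2, a forkhead transcription factor, read 1159 and 1076 in mGS lines, against 549, 403 and 619 in ES lines (1.12 ± 0.14). In both genes the mGS lines were close together and the highest ES line was far under the lower mGS line. The remaining 6 named genes rose by 0.74 to 0.99: Tent5c, a cytoplasmic poly(A) polymerase, Vcpkmt, which methylates the ATPase VCP, Cd59b, a mouse inhibitor of complement, Prorsd1, Car11, a carbonic anhydrase-related protein without catalytic activity, and Tiprl, a regulator of PP2A-type phosphatases. Each lost its call without at least 1 line.

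**Figure D2:**
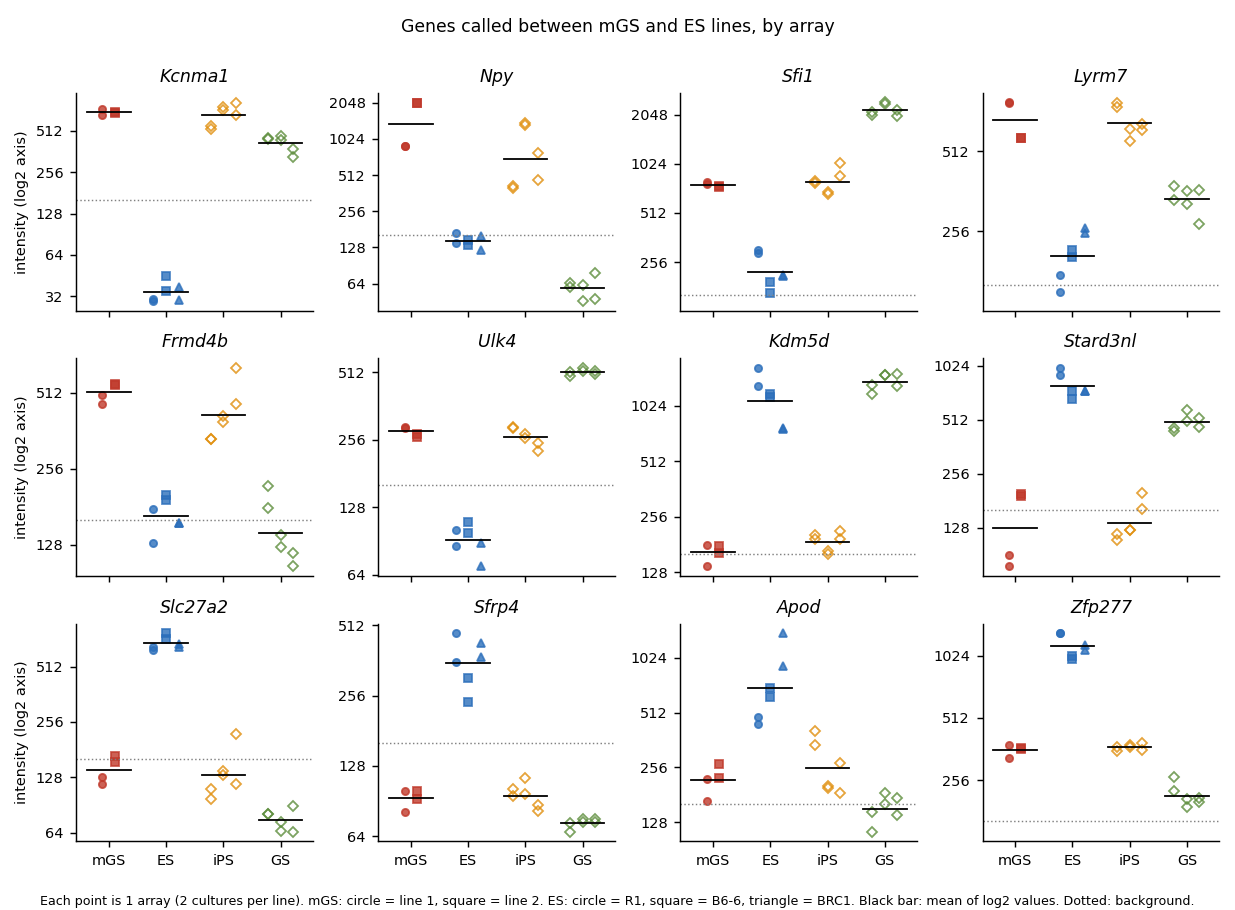
Intensity on a log2 axis of 12 called genes in every mGS, ES, iPS and GS array. Points are arrays, shapes of filled points are lines, black bars are means of the log2 values and the dotted line is the background of 161. In Kcnma1 the mGS arrays lie at 666 to 742 and the ES arrays at 29.6 to 45.0. In Slc27a2 the mGS lines are at 123 and 161, and the ES lines at 644 to 748.

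Of the genes that fell in mGS cells, Slc27a2, an acyl-CoA synthetase for very long chain fatty acids, had the most stable call. It read 123 and 161 in mGS lines, against 644, 748 and 667 in ES lines, a difference of −2.29 ± 0.28 (adjusted p = 0.000556), at least 4.25-fold lower. Zfp277, a zinc finger protein, read 352 and 364 in mGS lines, against 1320, 1007 and 1125 in ES lines (−1.68 ± 0.15, adjusted p = 1.54e-05). Neither gene overlapped between the groups, and both kept their call without any 1 line.

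Stard3nl, a protein of contact sites between endosomes and the endoplasmic reticulum, read 84.0 in mGS 1 and 194 in mGS 2, against 948, 705 and 739 in ES lines (−2.63 ± 0.36, at least 4.91-fold lower). Sfrp4, a secreted antagonist of WNT proteins, read 89.9 and 96.0 in mGS lines, against 410, 270 and 401 in ES lines (−1.93 ± 0.28, at least 2.20-fold lower). Both genes are on chromosome 13 with 1 protein-coding gene between them, the closest pair among the called genes. Without mGS 1 both lost their call, and Sfrp4 also lost it without mGS 2. Left-out lines put the difference between −3.23 and −2.03 for Stard3nl and between −2.13 and −1.83 for Sfrp4. Apod, a lipocalin that binds lipids, read 193 and 245 in mGS lines, against 461, 658 and 1133 in ES lines (−1.69 ± 0.33), with the ES lines unequal among themselves.

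Zfp985, a zinc finger gene, read 458 and 444 in mGS lines, against 816, 1039 and 1014 in ES lines (−1.08 ± 0.17), and the gene lies on chromosome 4 with 5 protein-coding genes between it and Fv1, which rose. Zc3h8, a zinc finger protein of the complex that transcribes small nuclear RNAs, read 168 and 158 in mGS lines, against 366, 289 and 300 in ES lines (−0.96 ± 0.15). The named genes with the smallest differences fell by 0.50 to 0.69 on the log2 scale: Mrpl35, a protein of the mitochondrial ribosome, Coa5, an assembly factor of cytochrome c oxidase, Slc25a15, the mitochondrial ornithine carrier, Mutyh, a DNA glycosylase of base excision repair, and Btbd11. The 41 called genes were spread over 18 chromosomes, with at most 5 on any 1 (chromosome 6).

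The iPS lines, which share the strain of the mGS lines, were close to them in these genes. No gene was called by limma between mGS and iPS lines (0 of 19938, 0%). The lowest adjusted p was 0.377, and 225 genes (1.13%) had an unadjusted p below 0.05. That share is smaller than the 0.05 threshold itself, so the test was strict here and the lack of calls does not show likeness. With only the mGS and iPS lines in the fit, 591 genes had an unadjusted p below 0.05 by limma, and 1 was called. Over the 41 genes called against ES cells the median size of the difference was 1.12 between mGS and ES and 0.10 between mGS and iPS, and the largest mGS minus iPS value among them was 0.96 for Npy. Slc27a2, for example, read 123 and 161 in mGS lines and 104, 135 and 161 in iPS lines. Zfp277 read 352 and 364 in mGS lines and 362, 374 and 371 in iPS lines. These comparisons share the mGS lines, and the 41 genes were chosen by their difference from ES cells, so the values are a description. Over the genes above background, the standard deviation of the log2 differences between a pair of lines was 0.23 to 0.37 for mGS with iPS, 0.38 to 0.46 for mGS with ES, 0.25 to 0.48 for ES with ES and 0.38 for the 2 mGS lines. For mGS with GS it was 0.94 to 1.06.

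No core pluripotency gene passed the test. Of 20 measured naive pluripotency factors 0 rose and 0 fell (1 with an unadjusted p below 0.05), with a median difference of −0.01 beside −0.03 for all genes. The median was −0.31 without mGS 1 and 0.30 without mGS 2. Pou5f1 read 5258 and 4618 in mGS lines, against 4298, 4042 and 4347 in ES lines (0.22 ± 0.27). Sox2 read 4555 and 3837 in mGS lines, against 4653, 3788 and 3710 in ES lines (0.05 ± 0.51). Nanog read 5337 and 3960 in mGS lines, against 5544, 4690 and 5288 in ES lines (−0.17 ± 0.25). The lines overlapped in Sox2 and Nanog, and Pou5f1 was slightly brighter in both mGS lines than in any ES line. Zfp42 (Rex1), a zinc finger marker of the naive state, had the lowest value of the list, 976 and 614 in mGS lines, against 3253, 711 and 2716 in ES lines (−1.25 ± 0.57, adjusted p = 0.767), with ES B6-6 inside the range of the mGS lines.

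Of 22 other ES cell marker genes 0 rose and 0 fell, with a median of −0.07. Dppa3 (Stella), a maternal factor also made in germ cells, read 457 and 460 in mGS lines, against 1158, 471 and 493 in ES lines. Dppa5a, an RNA-binding protein of pluripotent cells, read 7983 and 6662 in mGS lines, against 8645, 6818 and 6705 in ES lines. Fbxo15, a target of Oct4 and Sox2, read 1768 and 1727 in mGS lines, against 3560, 1967 and 2580 in ES lines. In Dppa3 and Fbxo15 the highest line was ES R1. Lefty2, a secreted inhibitor of Nodal, was the highest of the list by difference, with 1085 and 878 in mGS lines, against 929, 172 and 193 in ES lines (1.64 ± 0.64, adjusted p = 0.618), and passed without ES R1 (2.42, adjusted p = 0.0469).

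Genes of the primed epiblast and mesendoderm, the first steps out of naive pluripotency, mostly had positive differences, although none passed the test. Of 20 measured members 0 rose and 0 fell, 7 had an unadjusted p below 0.05, 19 had a difference above 0 and the median was 0.55 beside −0.03 for all genes (42.8% of all genes were above 0). The median was 0.22 without mGS 2 and 1.01 without mGS 1, when 2 members rose. Lhx1, a homeobox factor of early mesendoderm, read 210 in mGS 1 and 1031 in mGS 2, against 128, 87.9 and 102 in ES lines (2.16 ± 0.57, adjusted p = 0.21). Cer1, a secreted antagonist of Nodal and BMP, read 240 and 1299 in mGS lines, against 170, 116 and 105 in ES lines (2.13 ± 0.50, adjusted p = 0.127). Mixl1, a homeobox factor of the primitive streak, read 363 and 1141 in mGS lines, against 188, 193 and 195 in ES lines (1.74 ± 0.60, adjusted p = 0.496). The mGS and ES lines did not overlap in these 3 genes, as in 17.4% of all genes, and mGS 2 was far above mGS 1 in each. In Cer1 the arrays did overlap, since culture 1 of ES R1 read 312. Fgf5, the classic growth factor marker of the primed epiblast, read 413 and 1234 in mGS lines, against 328, 122 and 70.9 in ES lines (2.33 ± 1.25, adjusted p = 0.856). Otx2, a homeobox factor that opens the primed state, read 795 and 1921 in mGS lines, against 1568, 808 and 666 in ES lines (0.39 ± 0.43), and its lines overlapped. Pou3f1 (Oct6) read 1164 and 2317 in mGS lines, against 1205, 2263 and 1130 in ES lines (0.17 ± 0.82).

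Genes of FGF signalling and its ERK feedback had a median of 0.39 over 26 measured members, of which 0 rose, 0 fell and 4 had an unadjusted p below 0.05. The median was 0.19 without ES R1 and 0.25 without mGS 2. Fgfr3, an FGF receptor, read 305 and 254 in mGS lines, against 174, 194 and 178 in ES lines (0.61 ± 0.14, adjusted p = 0.122). p53 target genes had a median of 0.26 over 28 members, with 0 called and 0 at an unadjusted p below 0.05, and the median was 0.10 without mGS 1 and 0.14 without ES R1. Chac1, an enzyme of glutathione breakdown induced by the unfolded protein response, was in the list of heat shock and stress genes (median 0.04 over 21 members, 0 called, 5 with an unadjusted p below 0.05). It read 1245 and 581 in mGS lines, against 453, 308 and 378 in ES lines (1.18 ± 0.26, adjusted p = 0.0817). The DNA methylation and demethylation genes, 21 measured, had 0 called and a median of −0.01.

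Genes of the male germline mostly had negative differences between mGS and ES lines. Of 41 measured genes of meiosis, the germline and the piRNA pathway, which silences transposons, 0 rose and 1 fell. An unadjusted p below 0.05 was found for 11, 6 of the 41 had a difference above 0, and the median was −0.49 beside −0.03 for all genes. The median was −0.38 without ES R1, −0.34 without ES B6-6, −0.35 without mGS 2 and −0.33 with 50 units added before log2. The gene that fell was Tex11, an X-linked gene of meiotic chromosome pairing, with 130 and 112 in mGS lines, against 256, 270 and 316 in ES lines (−1.21 ± 0.24, adjusted p = 0.0405, at least 1.73-fold lower), and 2760 to 3640 in GS lines. Ldhc, the lactate dehydrogenase of sperm, which was in no list, fell as well, with 116 and 151 in mGS lines, against 389, 340 and 297 in ES lines (−1.36 ± 0.24, adjusted p = 0.0217, at least 2.11-fold lower). Of the 5 leave-outs of 1 line, Tex11 kept its call in 1 and Ldhc in 2.

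Sycp3, a component of the synaptonemal complex of meiosis, read 54.0 and 76.1 in mGS lines, against 825, 285 and 105 in ES lines (−2.18 ± 0.66, adjusted p = 0.326), with ES BRC1 also below background. Dazl, an RNA-binding protein of germ cells, read 361 and 273 in mGS lines, against 961, 619 and 949 in ES lines (−1.40 ± 0.57, adjusted p = 0.654), and 15426 to 16328 in GS lines. Ddx4 (Vasa), a germ cell RNA helicase, read 235 and 256 in mGS lines, against 348, 357 and 327 in ES lines (−0.49 ± 0.30). Mael, a piRNA pathway protein, went the other way with 930 and 890 in mGS lines, against 882, 467 and 648 in ES lines (0.50 ± 0.39). The lines did not overlap in Sycp3, Dazl, Ddx4 or Mael, as in 17.4% of all genes, although none passed the test. In Mael culture 2 of mGS 2 read 852, below the line value of ES R1.

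Of 32 measured spermatogonial stem cell and progenitor genes 0 rose and 0 fell, 5 had an unadjusted p below 0.05 and the median was −0.02. Sohlh2, a transcription factor of differentiating spermatogonia, read 163 and 123 in mGS lines, against 745, 1068 and 633 in ES lines (−2.49 ± 0.56, adjusted p = 0.101), and 1763 to 2724 in GS lines. Zbtb16 (Plzf), a factor of spermatogonial stem cells, read 130 and 124 in mGS lines, against 122, 127 and 135 in ES lines, all below background, and 8987 to 14611 in GS lines. Gfra1 and Ret, which together form the GDNF receptor, were low in all 5 lines. Gfra1 read 186 and 239 in mGS lines, against 199, 244 and 278 in ES lines, and Ret read 187 and 216 in mGS lines, against 144, 144 and 122 in ES lines. Their differences were −0.18 ± 0.28 for Gfra1 and 0.56 ± 0.20 for Ret (adjusted p = 0.527).

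**Figure D3:**
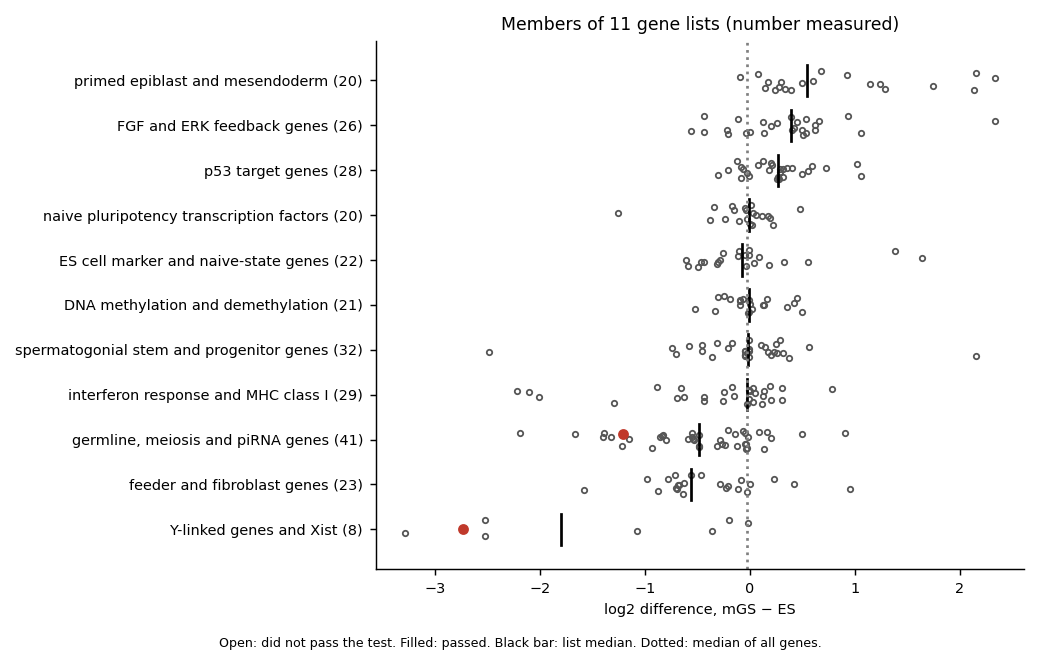
Log2 difference mGS minus ES of every measured member of 11 gene lists, with the number measured beside the name of each list. Filled points passed the test, black bars are list medians and the dotted line is the median of all genes at −0.03. The medians run from 0.55 in primed epiblast genes to −1.80 in Y-linked genes and Xist, where the median was −0.35 without mGS 1.

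Imprinted genes, expressed from the chromosome of 1 parent, had 0 calls in 20 measured paternally expressed and 20 measured maternally expressed genes, with medians of 0.13 and −0.07. Peg3 read 4173 and 4296 in mGS lines, against 1454, 2906 and 1547 in ES lines (1.18 ± 0.36, adjusted p = 0.32). The lines did not overlap in Peg3, as in 17.4% of all genes. Nnat read 2114 and 2922 in mGS lines, against 709, 953 and 872 in ES lines (1.57 ± 0.88, adjusted p = 0.889). Igf2 read 283 and 1195 in mGS lines, against 771, 3852 and 4427 in ES lines (−2.02 ± 0.85, adjusted p = 0.686). Igf2 is also made by fibroblasts, and the order of the 5 lines in Igf2 was the same as in the summed feeder markers given above. The part of feeder cells in the Igf2 values was not tested.

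Y-linked genes differed between the mGS lines. Over the 8 measured members of the list of Y-linked genes and Xist, the median mGS minus ES was −1.80 with both mGS lines and −0.35 without mGS 1. In mGS 1 the housekeeping translation factor gene Eif2s3y read 45.1 and the histone demethylase gene Uty 31.4, both below background, against 1006 and 651 in mGS 2, and against 878 to 2207 and 742 to 990 in ES lines. Zfy1, a Y-linked zinc finger gene, read 23.96 and 112 in mGS lines, both below background, against 1140, 479 and 236 in ES lines. The median over 5 Y-linked genes above background, relative to the ES mean, was −2.80 in mGS 1 and −0.28 in mGS 2. Relative to the median of all lines of the series, the median of chromosome Y was −0.36 in mGS 1 and −0.12 in mGS 2. In the lines converted with lentiviral vectors it ran from −0.61 (Dnmt mGS 2) to 0.77 (Oct4 mGS 3). In those lines Eif2s3y ran from 27.6 to 1328 and Uty from 28.8 to 821. Low values of these genes were thus not particular to mGS 1. Kdm5d, a Y-linked demethylase of histone H3 lysine, differed from Eif2s3y and Uty in being low in both mGS lines, at 158 and 171. Kdm5d fell, against 1465, 1157 and 768 in ES lines (−2.73 ± 0.44, adjusted p = 0.00821). It was similarly low in iPS lines, at 199, 164 and 204, in which Eif2s3y read 1113 to 1208, and it read 1251 to 1498 in GS lines. Without mGS 1 and without mGS 2 it missed the threshold, with differences of −2.68 and −2.79 (adjusted p = 0.104 and 0.0974).

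The ES lines were themselves unequal, and the number of genes called depended on ES R1. Against the mean of the other ES lines, ES R1 was over 2-fold higher in 185 and lower in 312 of 12749 genes above background, against 50 and 63 for ES B6-6 and 154 and 42 for ES BRC1. Without ES R1 the mGS and ES lines differed in 202 genes (1.01%), 63 higher (0.316%) and 139 lower (0.697%) in mGS cells. All 41 genes called with ES R1 in the fit kept their call without it, and 161 of the 202 genes were not called with it. In 90 of the 202 ES R1 reached the range of the mGS lines or passed it. The 161 genes were found by leaving ES R1 out, which partly fixes where it lies in them, so these counts are a description. Interferon-induced genes were among the 202 genes. With all lines, 0 of 29 measured genes of the interferon response and MHC class I were called (median −0.03), and without ES R1 6 fell. Ifit3, an antiviral protein that binds foreign RNA with Ifit1, read 151 and 164 in mGS lines, against 149 in ES R1, 1829 in ES B6-6 and 1446 in ES BRC1, a difference of −2.22 ± 0.66 with ES R1 (adjusted p = 0.313) and −3.37 ± 0.29 without it (adjusted p = 9.228e-06). Irf7, the transcription factor that drives interferon genes, read 83.8 and 89.0 in mGS lines, against 75.3, 421 and 301 in ES lines. Usp18, which removes the modifier Isg15 from proteins, read 78.7 and 151 in mGS lines, against 87.8, 1270 and 917 in ES lines. In these genes ES R1 lay with the mGS lines, and ES B6-6 and ES BRC1 stood apart.

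The acute-phase genes Lcn2, an iron-sequestering lipocalin, and Serpina3n, a protease inhibitor, which were chosen after their values were seen, were also low in ES R1 and both mGS lines. Lcn2 read 98.9 and 89.1 in mGS lines, against 92.7, 1302 and 1750 in ES lines. Serpina3n read 107 and 140 in mGS lines, against 128, 947 and 1416 in ES lines. The iPS lines were low in both, at 95.1 to 105 and 77.6 to 125, and the GS lines were high in both, at 2851, 1266 and 1862 for Lcn2 and 1072, 1039 and 1131 for Serpina3n. ES R1 was also the line with the least feeder signal among the ES lines. The feeder sum was 16481 in mGS 2 and 16918 in ES B6-6, and Ifit3 was 164 in mGS 2 and 1829 in ES B6-6. Single feeder markers differed between these 2 lines in both directions. Postn read 1740 in mGS 2 and 804 in ES B6-6, and Lum 347 and 1171, so the lines are not matched for feeder signal. The part of feeder cells in the values of these genes was not tested.

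**Figure D4:**
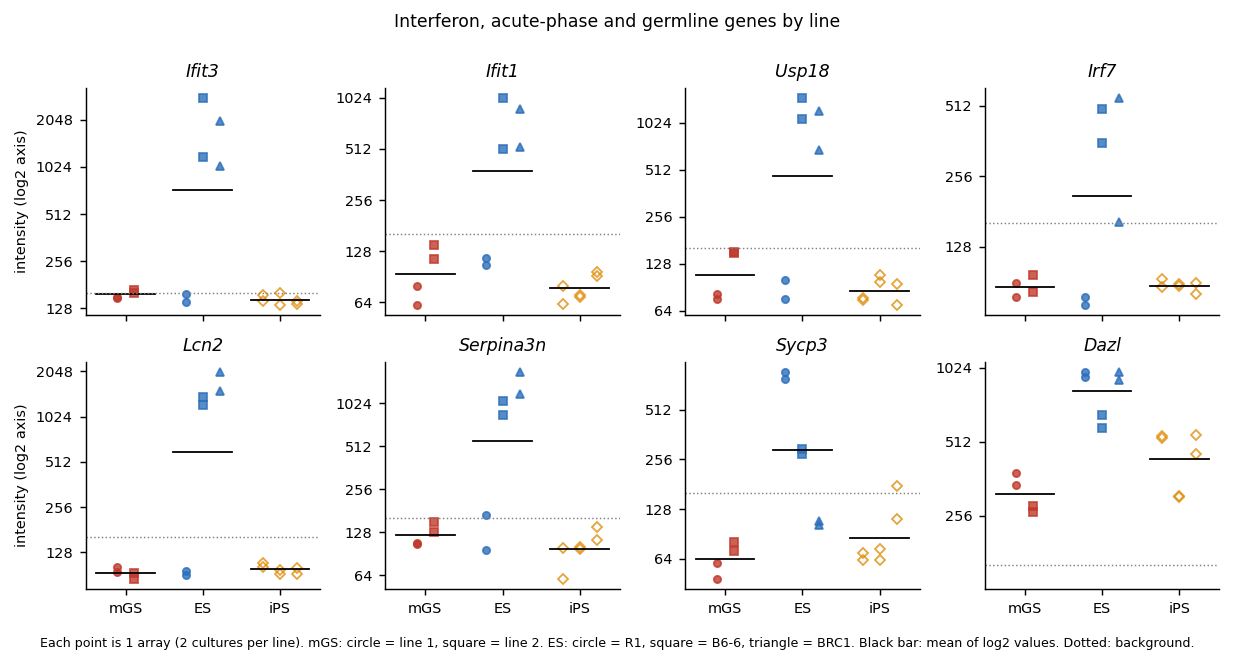
Intensity on a log2 axis of interferon-induced genes (Ifit3, Ifit1, Usp18, Irf7), acute-phase genes (Lcn2, Serpina3n) and germline genes (Sycp3, Dazl) in mGS, ES and iPS arrays. Points are arrays, bars means of the log2 values and the dotted line the background of 161. In Ifit3 the mGS lines and ES R1 are at 149 to 164, and ES B6-6 and ES BRC1 at 1829 and 1446.

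By chromosome, ES R1 stood above the mean of the ES lines over the genes of chromosome 8 (median 0.15) and chromosome 11 (0.17), where the medians were −0.12 and 0.03 in mGS 1 and −0.03 and −0.02 in mGS 2. Relative to the median of all 23 lines ES R1 was at 0.24 on chromosome 8 and 0.22 on chromosome 11, while mGS 1 was at −0.03 and 0.06 and mGS 2 at 0.05 and 0.01. No autosomal median of mGS 2 relative to the ES mean was further from 0 than −0.03. In mGS 1 chromosome 8 was the lowest and chromosome 1 the highest, at 0.03.

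The mGS lines differed from each other over many genes. Of 12841 genes above background in either line 44 were over 2-fold higher in mGS 1 and 349 in mGS 2, with the 2 cultures of one line both above those of the other. With 1 line on each side there is no test. The genes higher in mGS 1 by the largest ratios included Tbx3, a naive pluripotency factor (2261 in mGS 1 and 741 in mGS 2, with 1219, 1132 and 1500 in ES lines), Laptm5, a lysosomal membrane protein (1885 and 596), Ceacam1, an adhesion receptor (1495 and 458), Ildr1 (1287 and 408), Aard (965 and 252), Mras, a small GTPase (940 and 244), Ripply3 (491 and 150) and Pla2g4c, a phospholipase (296 and 83.9). Of the 8 genes named for the largest ratios in mGS 2, Eif2s3y and Uty are Y-linked and the other 6 are known from fibroblasts and extracellular matrix. Aspn read 90.1 in mGS 1 and 944 in mGS 2, Ccdc80 67.7 and 654, Col8a1 100 and 886, Mgp 62.7 and 440, Postn 263 and 1740, and Lox, which crosslinks collagen, 273 and 1737.

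As lists, feeder and fibroblast genes had a median mGS 1 minus mGS 2 of −1.66, with 20 of 23 more than 2-fold higher in mGS 2, and primed epiblast genes had a median of −0.99, with 9 of 20 more than 2-fold higher in mGS 2. Naive pluripotency factors had a median of 0.57, with 4 of 20 more than 2-fold higher in mGS 1. The line with more feeder signal was thus also the one with more primed and less naive signal, and the part of feeder cells in that difference was not tested. Against ES cells, feeder genes had a median of −0.57 over 23 members, with 0 called and 0 at an unadjusted p below 0.05, and the median was between −1.44 without mGS 2 and 0.23 without mGS 1 when lines were left out. With each line's feeder score fitted as a covariate, 92 genes were called between mGS and ES lines, among them all 41.

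**Figure D5:**
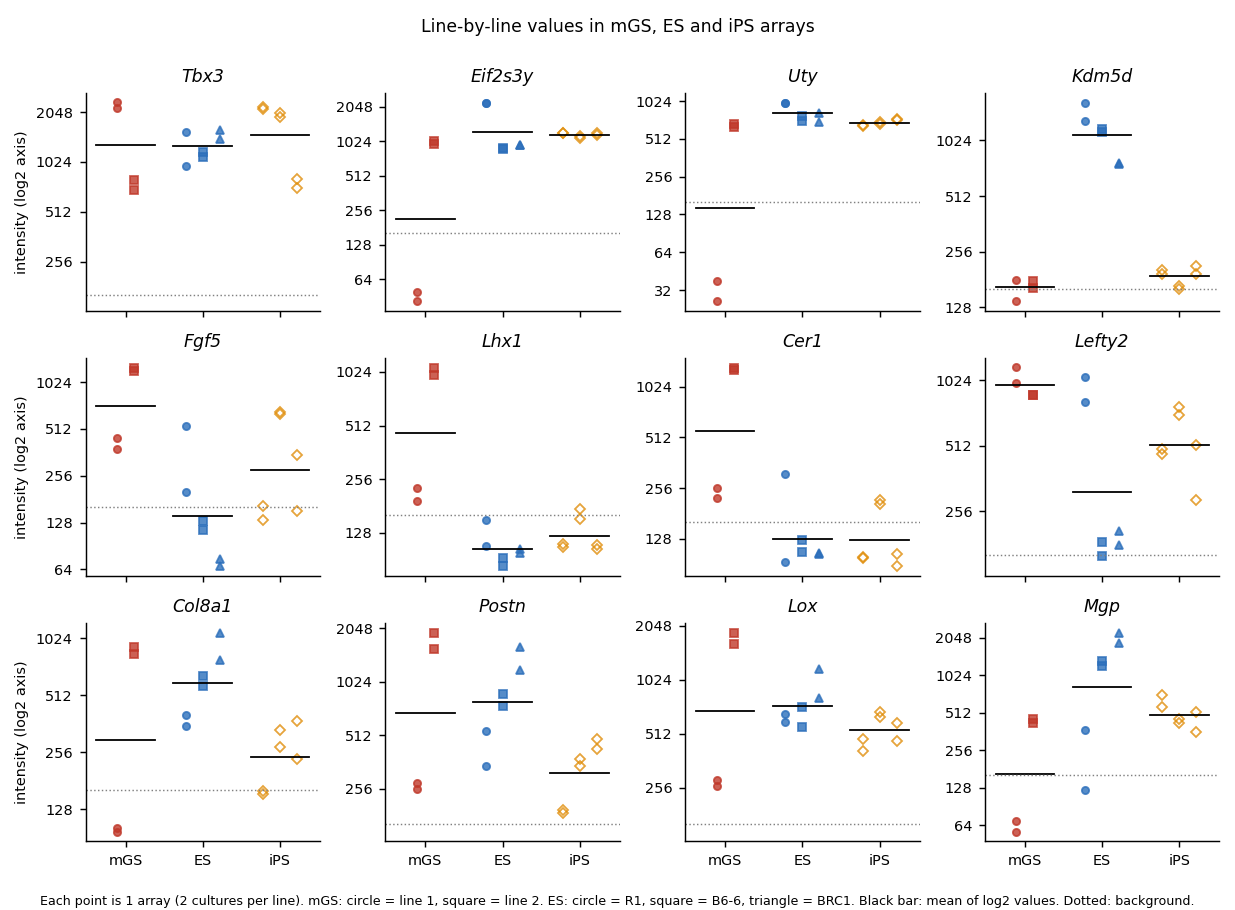
Intensity on a log2 axis of 12 genes in mGS, ES and iPS arrays. Points are arrays, circles mGS 1 and squares mGS 2 in the mGS column, and the dotted line is the background of 161. Eif2s3y and Uty are below background in mGS 1 at 45.1 and 31.4 and at 1006 and 651 in mGS 2, and the primed epiblast genes Fgf5, Lhx1 and Cer1 and the fibroblast genes Col8a1, Postn, Lox and Mgp are higher in mGS 2.

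The other lists held no called gene between mGS and ES lines: endoderm (median 0.15 over 18 measured members), trophoblast (−0.02 over 17), the state resembling 2-cell embryos (−0.36 over 9, of which 1 had a mean above background), early neural genes (−0.03 over 14), Nodal and TGF-beta signalling (0.17 over 22), BMP (0.05 over 21), WNT (0.11 over 26), LIF and STAT3 (−0.06 over 18), glycolysis (0.19 over 20), cholesterol synthesis (−0.08 over 19), proliferation (−0.02 over 21), G1 cyclins and Myc genes (−0.07 over 22), testis somatic cells (−0.05 over 16), X dosage genes (0.02 over 13) and Hox genes (−0.05 over 28). Among these, the median of endoderm genes was 0.48 and that of Nodal and TGF-beta signalling 0.29 without mGS 1, and that of cholesterol synthesis was −0.20 without mGS 2.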

How the data were processed

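Total RNA was hybridised to whole-transcript arrays. The deposited table gives linear intensity for 28856 probe sets on 46 arrays, and the authors' background correction and scaling are not given in the sources used here. Mouse assembly mm9 is named in the submitters' processing notes. Intensities were 16.0 to 27420, and no constant was added here before log2. The description of 1 of the 2 ES R1 arrays names R2, whereas its title and cell type say R1. It was kept as ES R1.

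Probe sets with 1 symbol in the platform annotation were kept (21789), the brightest one was taken for the 999 genes with more than 1, and 19938 genes resulted. Near-identical genes may share probes. Cultures were averaged per line, and the 23 lines in 8 groups were fitted together with limma 3.58.1 (R 4.3.3, lmFit and eBayes, 15 residual and 2.71 prior degrees of freedom), so p-values measure the spread between lines. The number of arrays limits the precision. Promoter windows are those of RefSeq on GRCm38.p6. The same fit was tested on simulated data.

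The comparison, its 2 leading genes and the gene lists were chosen with earlier results of these data known. Named are Kcnma1 and Npy, the 15 called genes highest and the 15 lowest by difference that have a gene name, lines without overlap and a mean above background in 1 group, members of each list (called ones, and the earliest on the list), 8 genes each way between the mGS lines and 3 genes most like each leading gene. Named after their values were seen were Zfp42, Lefty2, Cer1, Lhx1, Mixl1, Sohlh2, Sycp3, Ifit3, Irf7, Usp18, Igf2, Nnat, Zfy1, Fgfr3, Chac1, Lcn2, Serpina3n, Ifit1, Cbr3, Gmfg, Mid1, Cck and Tdrd5. Whether culture numbers pair samples across lines was checked. The deviations of same-numbered cultures of 10 pairs of lines had a median correlation of 0.0015, with 1 above 0.1, so they were not treated as pairs. Alternatives changed the normalization, the filter, the offset, the probe set rule, the cultures or lines used and the model. Tables were made in Python 3.11.15 with pandas 2.3.3 and numpy 2.4.6, and figures with matplotlib 3.10.9.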

Additional observations from a re-analysis of the deposited data

Results flagged for a closer look

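Among the 4 mGS arrays or the 6 ES arrays, an array lay far from the others of its group, relative to the whole range of the group, in 3 of 148 sets of values checked. Chance alone flags about 1 in 20 sets of independent values. The arrays are 2 cultures of each line and not independent, so that rate does not apply as it stands. Cer1 was at 312 in culture 1 of ES R1, against 92.7 to 125 in the other ES arrays, which is above the line value of mGS 1 (240) and below that of mGS 2 (1299). Prorsd1 was at 559 in culture 1 of mGS 1, against 635 to 648 in the other mGS arrays. Mael was at 852 in culture 2 of mGS 2, against 924 to 936 in the other mGS arrays.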

How the results depend on the processing

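The count of 41 genes called between mGS and ES lines was between 14 and 202 when each line was left out in turn, and the lone line was assumed to vary like the other groups where 1 mGS line remained. It was 237 with the line as a random block over all arrays, 2 with only the mGS and ES lines in the fit (Kcnma1 and Slc27a2), 27 with culture 2 of each line alone and 92 with the feeder score as a covariate. With the culture number as a replicate block and the line as a random block it was 208, although the check of the cultures gave no sign that the numbers pair samples. The other alternatives gave 29 to 47. Between mGS and iPS lines the count of 0 was 1 under the random block, the replicate block, the fit of only these groups and the feeder covariate, and 0 to 2 when lines were left out. The 30 called genes named kept their direction under every alternative in which they were tested, and 2 of them, Kcnma1 and Slc27a2, kept the call under all. Kcnma1 ranged from 2.22 with its probe sets averaged to 4.48, and Npy from 2.63 to 3.82. Differences close to 0 changed sign in genes that were not called. Zbtb16 was at 0.032 after quantile normalization and 0.037 in culture 2, Dppa5a at 0.064 in culture 1, and Sox2 at −0.031 in culture 2. When lines were left out, Zbtb16 ranged from −0.045 to 0.029, Dppa5a from −0.14 to 0.12, Sox2 from −0.070 to 0.18, Pou3f1 from −0.32 to 0.67, Gfra1 from −0.36 to 0.0074, Nanog from −0.38 to 0.048 and Otx2 from −0.25 to 1.02. Of 544 recomputed medians of gene lists 33 moved by more than the spread between lines, and the cause of these changes was not tested. Brightness limits the low values: 12749 of 19938 genes had a mean above background.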

Other observations

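Among genes outside the lists, Cbr3, a carbonyl reductase, read 515 and 632 in mGS lines, against 275, 185 and 164 in ES lines, with 535, 497 and 690 in iPS lines, and came close to the threshold (1.49 ± 0.31, adjusted p = 0.0682). Gmfg, an actin regulator of blood cells, read 1480 and 1522 in mGS lines, against 1367, 440 and 539 in ES lines (1.13 ± 0.33, adjusted p = 0.309), with ES R1 again close to the mGS lines. Both genes were chosen after their values were seen, and both passed without ES R1 (adjusted p = 0.0169 for Cbr3 and 0.0019 for Gmfg). Mid1, an X-linked ubiquitin ligase whose gene spans the pseudoautosomal boundary in laboratory mice, read 503 and 369 in mGS lines and 3671, 3655 and 4143 in iPS lines, the gene with the lowest adjusted p (0.377) between mGS and iPS lines, and 130, 440 and 331 in ES lines. Cck, a peptide hormone, read 1111 and 947 in mGS lines, against 313, 422 and 519 in ES lines (1.33 ± 1.14). Tdrd5, a protein of the piRNA pathway, was the highest of the germline list by difference, with 410 and 421 in mGS lines, against 272, 271 and 150 in ES lines (0.90 ± 0.37).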
